A study of Homo sapiens with 8 samples.

Results

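The genes of 8 transcription factors that build and keep hepatocyte identity were examined for endogenous G4s: HNF4A, FOXA1, FOXA2, FOXA3, CEBPA, ONECUT1, ONECUT2 and PROX1. They were taken by name as known hepatocyte regulators, with earlier results of these G4 maps known, and make up 8 of the 20163 protein-coding genes annotated on the nuclear chromosomes. The region of a gene was its body plus the 2 kb upstream of each of its annotated transcription start sites (TSSs), on the GRCh37 (hg19) build with GENCODE version 44 lifted to it. Every G4 ChIP-seq interval that shared at least 1 bp with such a region is given here, with its place, width and sequence content.

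The maps come from cultures of HepG2, a hepatocellular carcinoma line, and K562, a chronic myelogenous leukemia line that can make embryonic and fetal globins, with no treatment given for either. Each line has 3 G4 ChIP samples and 1 input sample in the labels, which call the ChIP samples technical replicates. Chromatin was treated with RNase A and folded G4s were captured with the BG4 antibody. For each line the authors merged replicate peaks into a high-confidence list (found in at least 6 of 9 replicates in HepG2 and 5 of 8 in K562) and a lower-confidence list (at least 2 replicates in either line). Per the paper, each line had 3 independent experiments with 2 to 3 technical replicates each, so these replicates are not all independent. The high-confidence lists hold 8805 HepG2 and 9205 K562 intervals, and the lower-confidence lists hold 28387 and 19249. An interval has no height, read count or replicate value, so the depth behind it is unknown, no spread between replicates was computed, and no difference between the lines was tested. Both lines are single cancer cell lines and stand for their lineages only as such.

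A G4 forms where 4 nearby runs of guanines on a DNA strand stack into planar layers, and the BG4 antibody recognises the folded form. HNF4A, a nuclear receptor, sits at the centre of the liver network. The FOXA proteins act as pioneer factors that open liver enhancers, CEBPA is a leucine zipper factor that drives metabolic liver genes, the ONECUT proteins (ONECUT1 is also called HNF6) act in liver and biliary development, and PROX1 is a homeobox factor needed for hepatoblast migration. CEBPA also has a central role in the myeloid branch of blood, and PROX1 in lymphatic vessels.

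A G4 motif was taken as 4 runs of at least 3 G separated by loops of 1 to 7 bases, on either strand, and 5′ to 3′ sequences are given below from GRCh37 with runs of 3 or more G in capitals. The complete motifs that lay inside a high-confidence interval at these genes are shown first, because they are the guanine tracts beneath the best supported signals. HNF4A intron was chr20:43040161-43040178 (plus strand, the strand of the gene), FOXA1 intron was chr14:38064642-38064665 (minus, the strand of the gene), FOXA1 upstream was chr14:38065503-38065527 (plus, opposite to the gene), and FOXA3 intron was chr19:46367504-46367528 (plus, the strand of the gene). The first 3 lay in HepG2 intervals and the last in a K562 interval.
HNF4A intron: GGGaGGGGtgtGGGcGGG
FOXA1 intron: GGGGGaGGGGtcgcGGGGGaGGGG
FOXA1 upstream: GGGagagcaaGGGcctGGGcgcGGG
FOXA3 intron: GGGGaggcGGGaGGGGagcccGGGG

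The other high-confidence intervals held guanine runs without a complete motif. The 30 bases richest in such runs are shown for 4 of these intervals, to let them be compared with the motifs above. CEBPA promoter was chr19:33793677-33793706, HNF4A promoter was chr20:42984154-42984183, FOXA3 promoter was chr19:46366464-46366493 in the interval that both lines share, and ONECUT2 promoter was chr18:55102488-55102517. All 4 stretches read as guanine runs on the minus strand.
CEBPA promoter: tGGGcgcGGGGGcgacggccGGGccGGGGG
HNF4A promoter: GGGtcctagtcctgcactctGGGGttaGGG
FOXA3 promoter: GGGacgaggcatGGGcGGGGtcGGGctgtg
ONECUT2 promoter: agctgccccGGGaggcGGGccttccacGGG
The CEBPA and FOXA3 stretches have 4 runs but a loop longer than 7 bases, and the intervals that hold them gained a motif when loops of up to 12 bases were allowed. The HNF4A and ONECUT2 stretches have only 3 runs.

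In HepG2, 5 of the 8 genes held a high-confidence G4 interval (HNF4A, FOXA1, FOXA3, CEBPA and ONECUT2), beside 34.9% of all protein-coding genes. In K562, 2 of the 8 did (FOXA3 and ONECUT2), beside 38.3% of all genes. The 3 genes marked in HepG2 and not in K562 at this threshold were HNF4A, FOXA1 and CEBPA, where 8.26% of all genes had that pattern. None of the 8 had a high-confidence interval in K562 alone, a pattern held by 11.7% of all genes. FOXA2, ONECUT1 and PROX1 had no high-confidence interval in either line.

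With the lower-confidence lists added, all 8 genes had a HepG2 interval (58.2% of all genes) and 3 had a K562 interval (54.3% of all genes), the third in K562 being CEBPA. HNF4A and FOXA1 had high-confidence signal in HepG2 and no K562 interval in either list, a pattern found at 3.25% of all genes. FOXA2, ONECUT1 and PROX1 had lower-confidence HepG2 intervals and no K562 interval, as did 7.71% of all genes. The 8 regions together held 9 HepG2 and 3 K562 high-confidence intervals, and 25 HepG2 and 4 K562 lower-confidence intervals. As the plot of interval numbers by gene shows, HNF4A supplied 4 of the 9 and 10 of the 25 in HepG2.

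**Figure D1:**
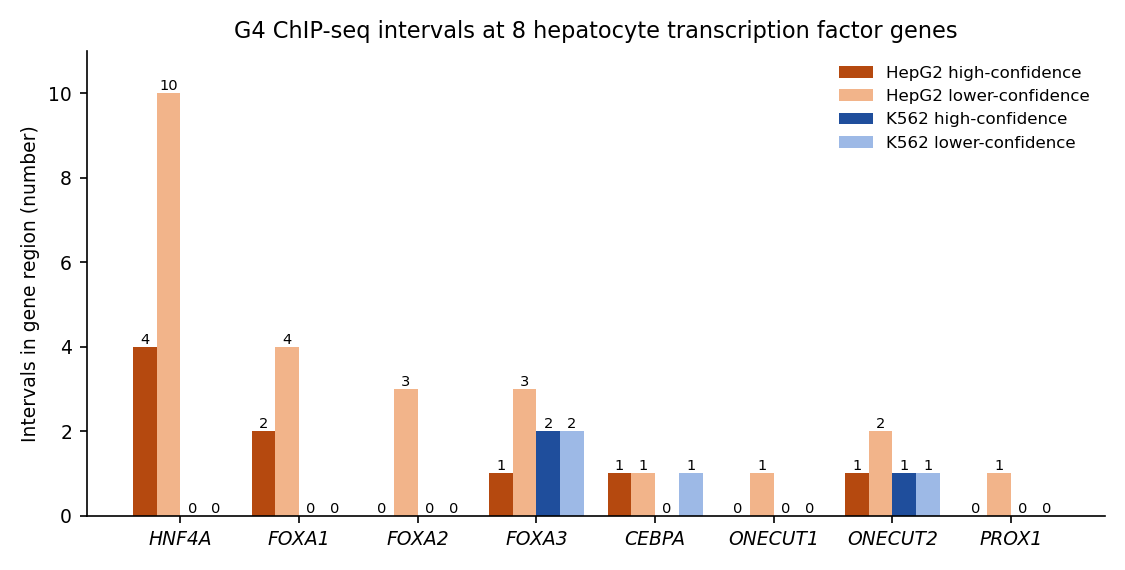
Number of G4 ChIP-seq intervals (vertical axis) in the region of each of the 8 genes (horizontal axis), with 1 bar for each of the 4 lists and its count above it. HepG2 bars reach 4 and 10 at HNF4A, and K562 bars are above 0 only at FOXA3, CEBPA and ONECUT2; there are no error bars because each list is 1 merged set.

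HNF4A (ENSG00000101076, chr20:42984339-43061485, plus strand) has the longest region of the 8, at 79.1 kb, and 17 annotated transcripts that start at 10 positions. Its start sites fall into an upstream cluster of 3, known as the P2 promoter, at chr20:42984339-42984445, and a downstream cluster of 7, known as the P1 promoter, at chr20:43029879-43030041. The clusters are 45434 bp apart. P1 is known as the promoter of adult liver and P2 as that of pancreatic beta cells, with activity in fetal liver too.

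The first HepG2 high-confidence interval of HNF4A, chr20:42984132-42984340, was 209 bp wide and had its centre 103 bp upstream of the first P2 start site. Its GC content was 57.9%, below the median of 65.2% of the HepG2 high-confidence list, and it held no motif. It also lies in the promoter (the 1 kb upstream of a TSS) of R3HDML-AS1, a noncoding gene. The G4 signal at the start sites of HNF4A in HepG2 was therefore at P2 at this threshold.

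No high-confidence interval lay within 1 kb of P1, where the nearest was 6330 bp away. A lower-confidence HepG2 interval of 94 bp, chr20:43030941-43031034, was 900 bp from the cluster. The motifs were placed the other way round, with 0 within 1 kb of the P2 cluster and 4 within 1 kb of the P1 cluster. These 4 were inside no interval of any list, although they are complete motifs, and 3 are shown for comparison with those that were covered. P1 upstream was chr20:43029288-43029309, P1 start was chr20:43029937-43029956 and P1 inner was chr20:43029962-43029983, all on the plus strand, which is that of the gene.
P1 upstream: GGGGcaGGGtGGGatcacaGGG
P1 start: GGGaGGGcggaGGGcGGGGG
P1 inner: GGGGtGGGcgcccaGGGtaGGG
The centre of the first was 581 bp upstream of the nearest start site, and those of the others were 5 bp and 31 bp downstream of theirs.

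The other 3 high-confidence intervals of HNF4A were intronic and far from any start site. The interval chr20:42999360-42999560 (201 bp, 60.2% GC) was centred 15015 bp downstream of P2. The interval chr20:43023182-43023549 (368 bp) was centred 6514 bp upstream of P1, overlapped the antisense gene HNF4A-AS1, and had the lowest GC content of the 9 HepG2 intervals, 52.7%. Neither contained a motif. The interval chr20:43039889-43040222 (334 bp, 62.3% GC) was centred 10014 bp downstream of P1 and carried the HNF4A intron motif shown above. These 3 were the only high-confidence intervals at the 8 genes, in either line, with a centre more than 1 kb from a start site of the gene.

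The 4 high-confidence intervals covered 1112 bp, or 1.4%, of the HNF4A region, and the lower-confidence intervals 2788 bp, or 3.52%. Each of the 4 sat in a wider lower-confidence interval, of 414 bp at P2, 415 bp and 747 bp in the upstream introns and 442 bp downstream of P1. The other 6 lower-confidence intervals were between 54 bp and 215 bp wide. The one at chr20:43031587-43031691 lay in a coding exon, and the last, chr20:43057208-43057422, held a motif despite a GC content of 43.7%. In all, 3 of the 23 motifs of the region lay inside a HepG2 interval.

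**Figure D2:**
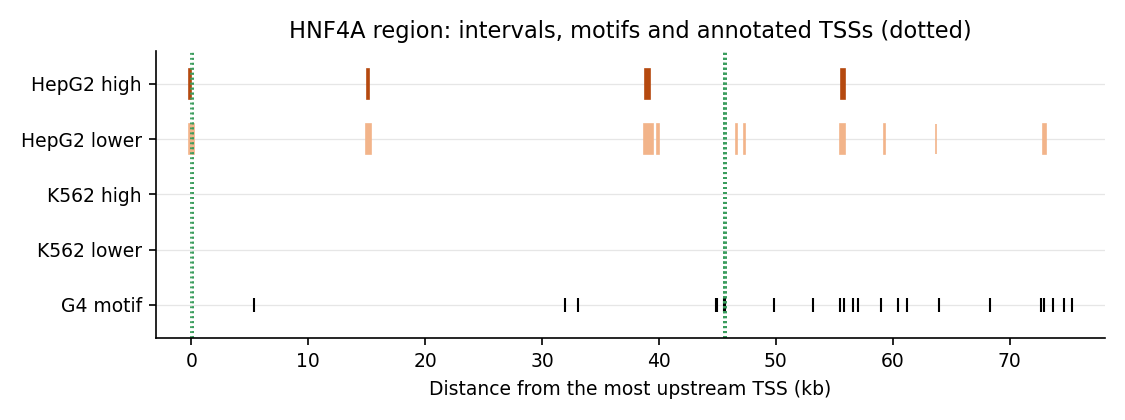
Intervals of the 4 lists, G4 motifs (black ticks) and annotated TSSs (dotted lines) along the HNF4A region, with the distance from the most upstream TSS in kb on the horizontal axis. HepG2 has 4 high-confidence and 10 lower-confidence intervals spread over the region, the first at the upstream TSS cluster, and both K562 rows are empty.

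K562 had no interval of either list in the HNF4A region. The nearest K562 high-confidence interval to a P2 start site was 44349 bp away and to a P1 start site 74390 bp away. Interval counts per gene were not scaled by region length, and the HNF4A region is long, at 79.1 kb. Among all protein-coding genes, 167 (0.828%) had at least as many HepG2 high-confidence intervals as HNF4A, and 8 (0.0397%) had at least as many with no K562 interval in either list. Those 8 are HNF4A, AGT, CUEDC1, NINL, PACSIN3, SH3BP4, STPG4 and a gene with no symbol, and they are named here because of these values, not from a list. AGT encodes angiotensinogen, a protein secreted by hepatocytes, but it is a single gene, and whether liver genes are common in this set was not tested.

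HNF4A lies on chromosome 20, where the lines differ over the whole chromosome. It held 437 HepG2 and 235 K562 high-confidence intervals, a ratio of 1.86 against 0.957 over all chromosomes. Of its protein-coding genes, 19.6% had a high-confidence interval in HepG2 and not in K562, and 7.13% had one with no K562 interval in either list. The part of this imbalance in the HNF4A values was not tested.

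FOXA1 (ENSG00000129514, chr14:38058757-38065264, minus strand) is a compact gene with 5 annotated start sites, and had the densest coverage of the 8. Its 2 HepG2 high-confidence intervals covered 541 bp, or 6.36%, of its 8.51 kb region, and its 4 lower-confidence intervals 1397 bp, or 16.4%. K562 had no interval of either list in the region. The nearest K562 intervals outside it were 391474 bp away in the lower-confidence and 1576921 bp away in the high-confidence list.

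Both FOXA1 high-confidence intervals contained a complete motif. The interval chr14:38064450-38064725 (276 bp, 67.0% GC) was centred 133 bp upstream of the canonical start site, in an intron of a transcript that starts farther upstream. The interval chr14:38065323-38065587 (265 bp, 65.3% GC) was centred 191 bp upstream of the most upstream start site. TTC6, a protein-coding gene transcribed in the other direction, starts between these intervals, so that the first is in the promoter of TTC6 and the second in its annotated body. The signal at FOXA1 can thus not be told apart from signal at TTC6.

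The first of these intervals widened to 573 bp with 3 motifs at lower confidence, and the second to 439 bp. A lower-confidence interval of 200 bp, chr14:38064088-38064287, lay in a 5′ UTR and another, chr14:38061313-38061497, lay in a coding exon 2062 bp downstream of a start site. In all, 4 of the 6 motifs of FOXA1 were inside a HepG2 interval, the highest share among the 8 genes, and all 6 lay within 1 kb of a start site. Chromosome 14 held 339 HepG2 and 179 K562 high-confidence intervals, a ratio of 1.89, and 18.5% of its protein-coding genes had a high-confidence interval in HepG2 and not in K562. As for chromosome 20, the part of this imbalance in the FOXA1 values was not tested.

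FOXA2 (ENSG00000125798, chr20:22561636-22566093, minus strand) had no high-confidence interval and 3 lower-confidence ones in HepG2, all downstream of its canonical start site. They were 78 bp, 63 bp and 198 bp wide, centred 1348 bp, 1237 bp and 229 bp downstream, and covered 5.25% of the region. The narrowest pair lay in an intron and the widest in a 5′ UTR. The first, chr20:22563824-22563901 (78.2% GC), held a motif on the strand of the gene at chr20:22563849-22563871, shown because it is the single motif covered at FOXA2.
FOXA2 intron: GGGcggtGGGtGGGaggtctGGG
The other 6 motifs of FOXA2 lay in no interval, including those nearest the start site. K562 had no interval in the region, and its nearest high-confidence interval was 545702 bp away. FOXA2 shares chromosome 20, and its imbalance, with HNF4A.

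FOXA3 (ENSG00000170608, chr19:46367247-46377055, plus strand) was the one member with more high-confidence intervals in K562 than in HepG2, 2 against 1. The HepG2 interval chr19:46366429-46366676 (248 bp, 63.7% GC), centred 695 bp upstream of the first start site, lay wholly inside the K562 interval chr19:46366406-46366681 (276 bp, 65.2% GC). Neither held a motif. The second K562 interval, chr19:46367374-46367574 (201 bp, 77.1% GC), was centred 110 bp upstream of the second start site and carried the FOXA3 intron motif.

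At that second site HepG2 had only a lower-confidence interval of 60 bp, of which 47 bp overlapped the K562 high-confidence interval and which did not reach the motif. SYMPK, a protein-coding gene for a factor of mRNA 3′ end processing that cells of most types express, is divergent from FOXA3. Its promoter overlaps all the intervals shared by the lines at this gene. The shared intervals upstream of the first FOXA3 start site also overlap the annotated body of SYMPK. The signal can therefore not be assigned to FOXA3 rather than to SYMPK. A further HepG2 lower-confidence interval of 393 bp touched only the last 6 bp of the region, and the nearest HepG2 high-confidence interval outside it started 91 bp past its end.

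CEBPA (ENSG00000245848, chr19:33790840-33793440, minus strand), which has no intron and a single annotated transcript, had the GC-richest high-confidence interval of the 8 genes. The HepG2 interval chr19:33793494-33793738 was 245 bp wide with 81.6% GC, above 98.1% of the HepG2 high-confidence list, and was centred 176 bp upstream of the start site. It contained no motif with loops of up to 7 bases. The lower-confidence HepG2 interval around it, 392 bp wide, reached a motif at chr19:33793799-33793822 on the plus strand, centred 370 bp upstream and shown as the nearest motif on that side.
CEBPA upstream: GGGGtaGGGGtGGGGGGcggaGGG

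K562 also had signal at the CEBPA promoter, at lower confidence only. The K562 interval chr19:33793425-33793684 (260 bp, 80.0% GC) was centred 114 bp upstream and shared 191 bp with the HepG2 high-confidence interval. CEBPA thus differed between the lines in the confidence of a promoter interval, and not in its presence. The nearest K562 high-confidence interval to the start site was 70987 bp away. CEBPA-DT, a divergent noncoding gene, has its promoter at the same place.

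ONECUT2 (ENSG00000119547, chr18:55102606-55158530, plus strand) had a shared promoter interval in both lines. The promoter of AC090340.1, a gene not annotated as protein-coding, overlaps the same place. The HepG2 high-confidence interval chr18:55102477-55102529 was only 53 bp wide, narrower than all but 8.87% of its list, with 73.6% GC and its centre 103 bp upstream. It lay wholly inside the K562 interval chr18:55102467-55102590 (124 bp, 74.2% GC), centred 78 bp upstream. At lower confidence the order of widths turned, with 268 bp in HepG2 and 162 bp in K562, and the HepG2 interval reached a motif just downstream of the start site, at chr18:55102705-55102724 on the minus strand.
ONECUT2 start: GGGaGGGaGGGatcaccGGG
A second HepG2 lower-confidence interval of 128 bp lay in an intron, 2690 bp downstream. Of the 19 motifs of ONECUT2, 9 were within 1 kb of a start site, more than at any other member, and 1 was inside an interval.

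ONECUT1 (ENSG00000169856, chr15:53047250-53083275, minus strand) and PROX1 (ENSG00000117707, chr1:214156524-214214853, plus strand) each had a single interval in all 4 lists, from the HepG2 lower-confidence list. That of ONECUT1, chr15:53078851-53078946 (96 bp, 63.5% GC), lay in an intron 2695 bp downstream of a start site and covered 0.252% of the region. That of PROX1, chr1:214161237-214161377 (141 bp, 51.1% GC), lay on a start site, with its centre 9 bp upstream, and also overlapped the antisense gene PROX1-AS1. Neither held a motif, and none of the 9 motifs of ONECUT1 or the 13 of PROX1 was inside an interval.

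**Figure D3:**
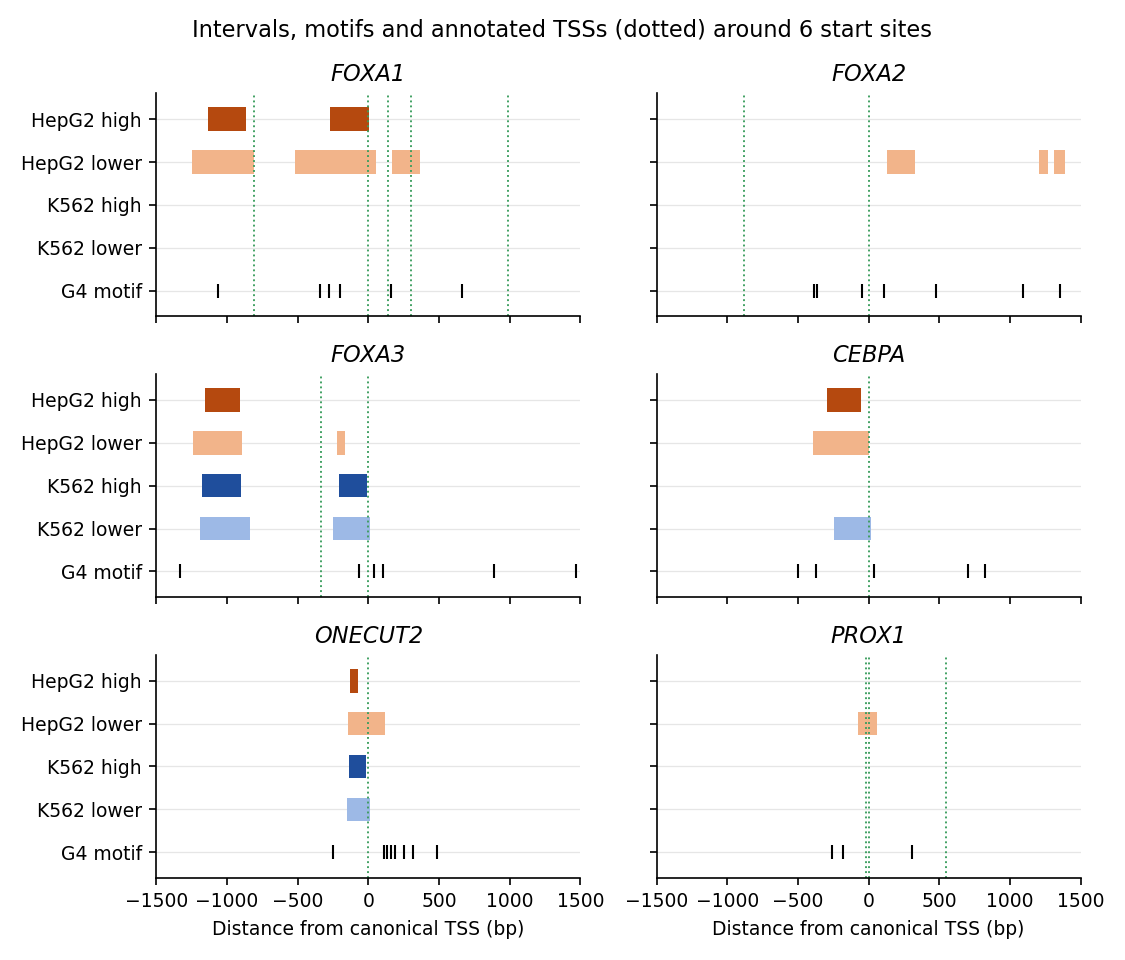
Intervals of the 4 lists, G4 motifs (black ticks) and annotated TSSs (dotted lines) within 1500 bp of the canonical TSS of 6 genes, with distance from that TSS in bp on the horizontal axis and upstream to the left. HepG2 intervals are drawn in every panel, K562 intervals at FOXA3, CEBPA and ONECUT2, and most motif ticks lie outside the intervals.

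Most high-confidence intervals at these genes were at promoters. In the 1 kb upstream of a start site, 5 of the 8 genes had a HepG2 high-confidence interval (29.6% of all protein-coding genes) and 2 had a K562 one (34.6%). By the place of the centre, 5 of the 9 HepG2 intervals were upstream of the gene and 4 in an intron, and 6 of the 9 were centred within 1 kb of a start site. All 3 K562 high-confidence and all 4 lower-confidence intervals were so centred. Of the 25 HepG2 lower-confidence intervals, 11 were within 1 kb of a start site and 14 were farther away. The matching shares of the whole lists were not computed, and the regions were defined from start sites. These interval counts can therefore not be called particular to these genes.

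Of the 9 HepG2 high-confidence intervals, 2 overlapped a K562 high-confidence interval, against 53.7% of the whole list. A further one, at CEBPA, overlapped a K562 lower-confidence interval. The remaining 6, all at HNF4A and FOXA1, overlapped no K562 interval, against 32.9% of the list. All 3 K562 high-confidence intervals overlapped a HepG2 interval of one list or the other. The share of the whole K562 list that did so was not computed, so this count cannot be called particular to these genes.

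A complete motif lay in 3 of the 9 HepG2 high-confidence intervals, against 20.6% of the nuclear intervals of that list, and in 1 of the 3 K562 ones, against 32.6%. This motif is a strict one. The paper reports that most high-confidence sites of both lines contain sequence that formed G4s in vitro. An interval without the motif can therefore still hold such sequence. The 8 regions held 96 motifs, 48 of them on the strand of the gene. Of the 96, 3 were inside a HepG2 and 1 inside a K562 high-confidence interval, and 85 were in no list. Of the 41 motifs within 1 kb of a start site, HepG2 high-confidence intervals covered 2 and lower-confidence intervals 6. The share of motifs covered over all gene regions was not computed, so these counts cannot be called low or high for genes. A motif within 1 kb of the canonical start site was present at 7 of the 8 genes, and at 68.3% of all protein-coding genes. The exception was HNF4A, whose canonical start site is in the P2 cluster and whose window held a HepG2 high-confidence interval with 0 motifs. ONECUT1 was the only one of the 7 with no interval in that window, whereas 37.6% of all genes with a motif there had none.

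The HepG2 high-confidence intervals of these genes had a median width of 248 bp (53 bp to 368 bp), against 169 bp in the list. Their median GC content was 63.7%, against 65.2%, with quartiles of 58.9% and 71.0% in the list. The 3 K562 intervals had a median width of 201 bp against 195 bp and a median GC content of 74.2% against 70.3%. In the plot of width against GC content, HNF4A and CEBPA mark opposite ends: all 4 HNF4A intervals were below the GC median of their list, and the CEBPA interval was near its top.

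**Figure D4:**
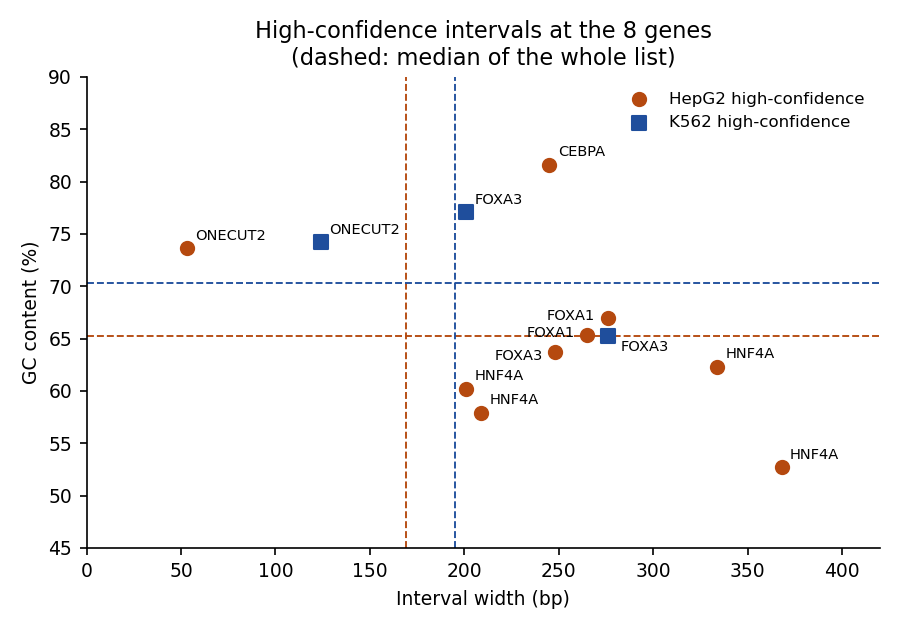
Width in bp (horizontal axis) and GC content in percent (vertical axis) of each high-confidence interval at the 8 genes, HepG2 as circles and K562 as squares, with dashed lines at the medians of each whole list (169 bp and 65.2% in HepG2, 195 bp and 70.3% in K562). The 4 HNF4A intervals lie below both GC medians, and CEBPA is highest at 81.6%.

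In the 100 kb on either side of the regions, outside the genes, HepG2 had 22 high-confidence intervals and K562 had 9 in all. HepG2 had more than K562 around 6 of the 8 genes, a pattern at 22.3% of all protein-coding genes, and fewer around 0, against 28.9%. Of these 6, FOXA1 lies on chromosome 14, and FOXA2 and HNF4A on chromosome 20, with HepG2 to K562 ratios of 1.89 and 1.86. The ratio was 0.742 on chromosome 19 (FOXA3 and CEBPA) and 0.727 on chromosome 1 (PROX1). The part of these chromosome ratios in the flank counts was not tested. FOXA2 had no high-confidence interval in its own region, but 4 HepG2 and 0 K562 intervals in its flanks, the nearest 46736 bp away. CEBPA had 6 against 1, HNF4A 4 against 3, FOXA3 6 against 5, and FOXA1 and PROX1 each 1 against 0. At PROX1 the flanking HepG2 interval, chr1:214223997-214224136, was 9144 bp past the region. ONECUT1 and ONECUT2 had none in either line.

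Of 16 other hepatocyte transcription factor genes, 12 had a HepG2 and 6 a K562 high-confidence interval, beside 34.9% and 38.3% of all protein-coding genes. HepG2 signal alone at this threshold was present at 7 of the 16, beside 8.26% of all genes. Of these 7, 4 had no K562 interval in either list, a pattern at 3.25% of all genes. The 7 included GATA4, with 2 intervals, and NR0B2, NR1I2, NR1I3 and CREB3L3, with 1 each. K562 had a lower-confidence interval at NR0B2, NR1I2 and CREB3L3, and signal at NR0B2 also overlapped the gene NUDC. GATA4 is a zinc finger factor of early liver development, and NR1I2 and NR1I3 (PXR and CAR) are xenobiotic receptors. PPARA, a receptor for fatty acids, had a high-confidence interval in K562 alone, and a lower-confidence one in HepG2.

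Among 8 blood transcription factor genes the counts were higher in K562. High-confidence intervals were present at 6 in K562 (38.3% of all genes) and at 2 in HepG2 (34.9%). TAL1, KLF1, NFE2 and MYB, regulators of blood stem cells and of the erythroid and megakaryocyte lineages, had them in K562 alone. That pattern held for 11.7% of all genes. NFE2 also had a lower-confidence interval in HepG2. GATA1 and LMO2 had no high-confidence interval in either line, and a lower-confidence one in K562 only. High-confidence intervals in HepG2 alone were present at 0 of the 8, beside 8.26% of all genes. Of 8 hepatocyte product genes, 5 had a HepG2 and 1 a K562 high-confidence interval (34.9% and 38.3% of all genes). HepG2 alone had one at 4 of them (8.26% of all genes), and K562 alone at 0 (11.7%). However, ALB, TTR and FGB, which hepatocytes transcribe strongly, had no interval in any list. Of 8 erythroid genes, 4 had a K562 and 2 a HepG2 high-confidence interval, beside 38.3% and 34.9% of all genes. K562 alone had one at 2 of them (11.7% of all genes), and HepG2 alone at 0 (8.26%). Those 2 are HBG2 and HBE1, which share their intervals because their annotated regions overlap. Transcript levels were not analysed here, so interval presence was not set against expression.

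**Figure D5:**
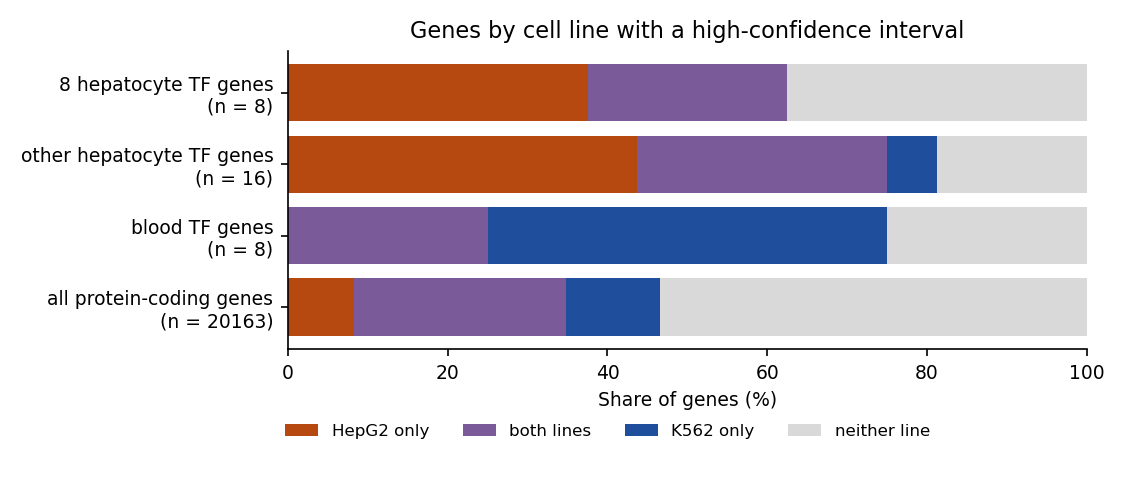
Share of genes in percent (horizontal axis) with a high-confidence interval in HepG2 only, in both lines, in K562 only or in neither, for the 8 hepatocyte transcription factor genes, 16 other hepatocyte transcription factor genes, 8 blood transcription factor genes and all 20163 protein-coding genes. The HepG2-only share is 3 of 8, 7 of 16, 0 of 8 and 8.26%.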

How the data were processed

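G4 ChIP-seq was carried out by the authors in HepG2 and K562. Per the study's methods, adapters were trimmed by cutadapt, BWA placed the reads on hg19, duplicates were discarded, MACS2 called peaks in each replicate and bedtools combined them. The deposited values are interval positions only, in bp, with no count, height or q-value, so depth is unknown and no replicate error could be computed. Every high-confidence interval lies wholly inside a lower-confidence interval of its line, so the lists are not independent.

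Intervals were converted to positions counted from 1 and compared with GRCh37 and GENCODE version 44 lifted to that build (the study used an earlier release). All 4 lists fitted this build, with 0 intervals past a chromosome end. Overlap meant at least 1 bp. A centre's distance was taken to the nearest TSS of any transcript of the gene. Motifs on a strand did not overlap each other, loops could hold G, and a motif counted only when wholly inside an interval. The annotation class is that of the interval's centre in the gene's own transcripts. The whole-list motif shares leave out the mitochondrial chromosome. Of the other gene lists, genes with a high-confidence interval in exactly 1 line were named, except that some items are not reported here. The members and lists were chosen with earlier results of these data known.

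Overlap searches were tested on simulated data and equalled a direct search in 500 of 500 cases, and motif calls in 2000 of 2000. Python 3.11.15, numpy 2.4.6, pandas 2.3.3, pysam 0.24.0 and matplotlib 3.10.9 were used. Other region, width, overlap, list and motif definitions were tried as alternatives.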

Additional observations from a re-analysis of the deposited data

How the results depend on the processing

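The lower-confidence lists gave HepG2 intervals at 8 genes, HepG2 and no K562 intervals at 5, 25 HepG2 intervals of which 7 held a motif, and raised the shares of all genes to 58.2% (HepG2) and 54.3% (K562). Longer loops (up to 12 bases) raised the HepG2 intervals with a motif from 3 to 5 and the K562 ones from 1 to 2, and runs of at least 2 G raised them to 8 and 3. The shares of all genes were 29.6% and 34.6% with only the 1 kb upstream of each TSS, 31.8% and 36.5% with 2 kb on either side, and 33.5% and 37.4% with intervals of at least 50 bp. When intervals in another coding gene's promoter were left out, an alternative chosen after seeing the data, K562 kept 1 gene (ONECUT2) and 1 interval, with 0 motifs. HepG2 then kept 4 genes and 7 intervals, of which 2 held a motif. Of 70 values under 12 alternatives, 51 stayed within set limits: gene and interval counts by at most 1.5 times, and shares of genes within their 95% binomial interval. These limits are wide for small counts. With only the 1 kb upstream, or 2 kb on either side, HepG2 high-confidence intervals fell from 9 to 6 and those with a motif from 3 to 2. Calling a gene absent from K562 only when both K562 lists were empty left 2 of the 3 genes with HepG2 signal alone, HNF4A and FOXA1. Leaving out a replicate could not be done, since each list is 1 merged set. No paired analysis was possible because the lists hold no value per replicate. The lists do not say how far an interval missing from one was below its threshold.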
